A study of Mus musculus with 18 samples.

Results

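The genes described here encode poly(A)-binding proteins and the proteins that bind and regulate them. They were 8 genes, Pabpc1, Pabpc2, Pabpc4, Pabpc5, Pabpn1, Paip1, Paip2 and Paip2b, chosen by name, and every probe set annotated to exactly 1 of them was taken. This gave 17 of the 45037 probe sets tested, or 8 of 18193 genes. Pabpn1 and Paip1 had 4 probe sets each, Pabpc1, Pabpc4 and Paip2b had 2 each, and Pabpc2, Pabpc5 and Paip2 had 1 each. Their levels were compared between RNA recovered with an anti-flag antibody (IP, 9 arrays) and total RNA of whole brain (WB, 9 arrays). All the mice had a C57BL/6J X DBA/2J background, an age given as 11 and 14 weeks without assignment to samples, and a transgene. It placed a flag-tagged rat poly(A) binding protein 1 (PABP) cDNA, followed by an internal ribosome entry site and eGFP, in the orexin (orx) gene of a bacterial artificial chromosome. Orexin is a neuropeptide of a small population of lateral hypothalamic neurons, so the tagged protein was placed under the control of a gene that few brain cells use. The brains were perfused with formaldehyde, which links RNA to protein, and the IP RNA was eluted from anti-flag beads. The labels call the IP RNA polyA RNA and the WB RNA total RNA.

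Poly(A)-binding proteins coat the adenosine tail that most messenger RNAs carry at their end. In the nucleus PABPN1 binds the growing tail and stimulates the poly(A) polymerase. In the cytoplasm PABPC1 and its relatives replace it, bind the initiation factor eIF4G at the cap end, and so favour translation and protect the message until deadenylases shorten the tail. The partners act in opposite directions: PAIP1 assists initiation, while PAIP2 and PAIP2B pull the protein off the tail and inhibit translation. The tagged protein of this study is a PABPC1, so the RNA measured in IP was captured by the product of a member of this family. None of the sources used here gives whether a Pabpc1 probe set detects the rat transgene.

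The values were array intensities, analysed as log2(intensity + 16), and a probe set was called at an adjusted p of 0.05 (limma, Benjamini-Hochberg over all probe sets). The added 16 makes folds understate changes of dim probe sets. Of the 17 probe sets 3 were higher in IP, 4 were lower and 10 did not pass, and 8 had an unadjusted p under 0.05. Of the whole array 14.2% was higher and 30.8% lower, 45% in either direction, so the shares among these 17 were close to those of the array as a whole. The median difference was -0.14 over the 17 probe sets and -0.23 over all probe sets (log2, IP minus WB). The split depended on how arrays were scaled: it was 3 higher and 4 lower with quantile normalization (24.1% and 22% of all probe sets), 5 and 2 with median centring (28.4% and 18.5%), and 1 and 13 when set to the hybridization controls described below (3.24% and 62.4%). On the brightest probe set of each gene 2 of 8 genes were higher, Pabpn1 and Paip2, and 6 did not pass, while 21.7% of all genes were higher by the same rule.

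**Figure D1:**
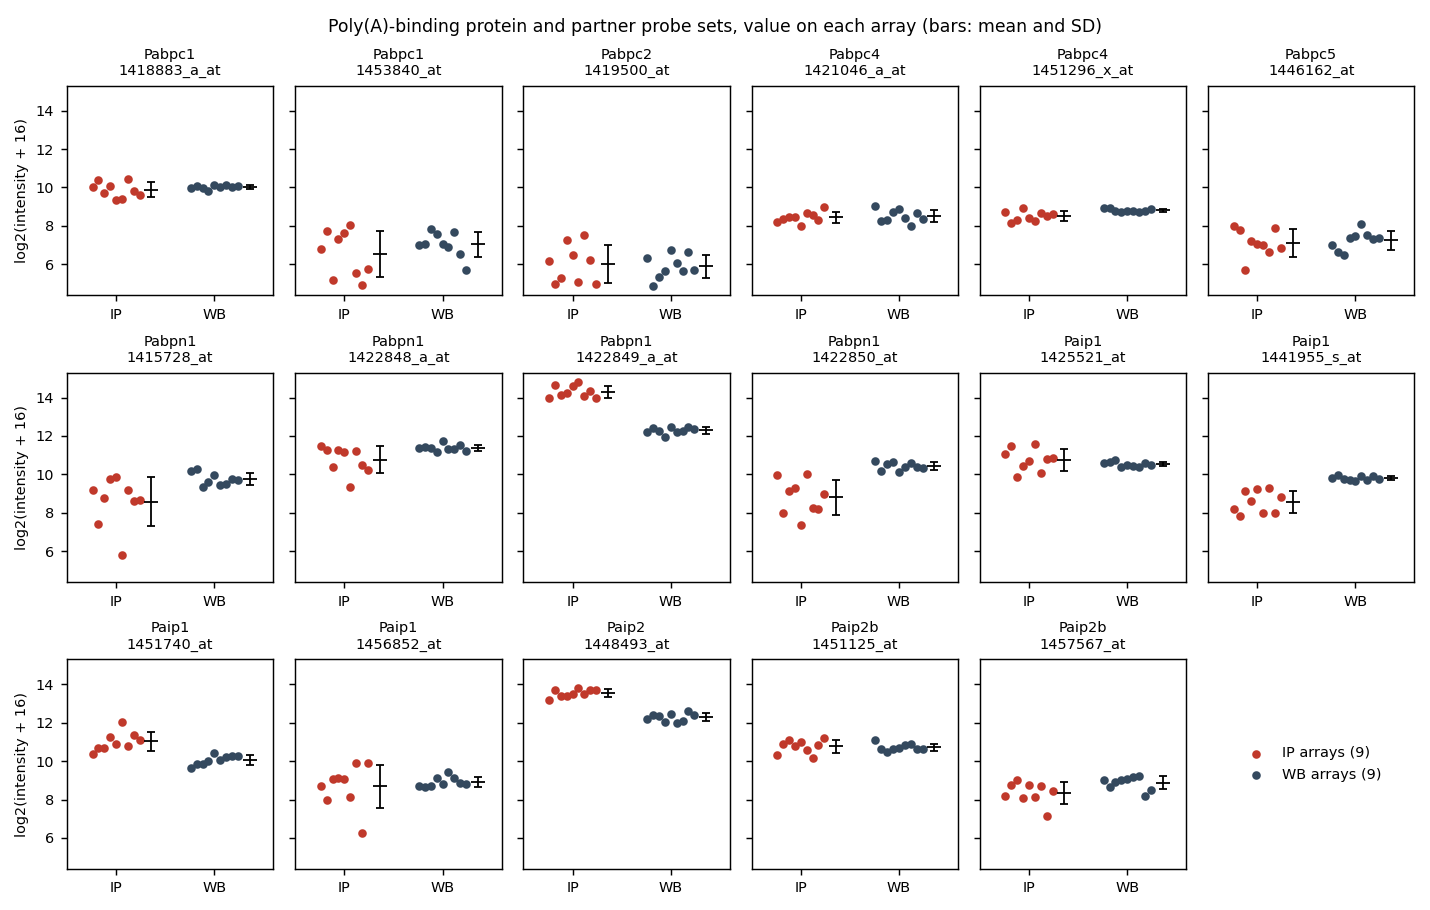
Value of each of the 17 probe sets, log2(intensity + 16), on each of 9 IP arrays (red, left) and 9 WB arrays (dark, right), with the mean and SD in black. IP lies wholly above WB for Pabpn1 1422849_a_at and Paip2 1448493_at and wholly below it for Pabpn1 1422850_at and Paip1 1441955_s_at.

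Several facts of the arrays stand beside these counts. Each array had been scaled as a whole, to a mean of 500 without the lowest and highest 2% of values. The hybridization controls, bacterial and phage transcripts added to every array, had geometric means of 13174 to 40705 in IP and 8471 to 11920 in WB. IP replicates 2, 5, 6 and 8 stood above the other IP arrays in these controls, with at least 23242 against at most 15761. The ratio of the 3' to the 5' control probe set of Gapdh was 4.19 ± 0.69 in IP and 1.56 ± 0.15 in WB (log2, SD, n = 9 each), higher on 9 of 9 IP arrays (exact two-sided permutation p = 4.11e-05, adjusted p = 8.23e-05, the smallest the test can give before adjustment). The same ratio for beta-actin was -0.36 ± 0.44 in IP and -0.17 ± 0.08 in WB (exact permutation p = 0.242). The part of these array differences in the results below was not tested. Nothing says that the samples came from separate animals, so p-values reflect only how much these samples vary, some of which may be technical, and the number of arrays limits the precision.

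The label of orexin neurons and brain was read against marker genes. Hcrt, which encodes orexin, was the only marker listed for those neurons and did not pass the test, with a single probe set of 73.8 to 491 in IP and 156 to 388 in WB (intensity). The levels of the other markers were summed over the brightest probe set of each gene. The 5 neuronal markers summed to 59044 to 108101 in IP and 45642 to 59617 in WB, with 2 higher and 3 lower. The 5 astrocyte markers summed to 31367 to 62325 in IP and 16452 to 22551 in WB (3 higher, 1 lower), the 4 oligodendrocyte markers to 27844 to 82468 in IP and 17132 to 26365 in WB (2 higher, 1 lower), and the 5 microglial markers to 7873 to 14514 in IP and 3672 to 5841 in WB (2 higher, 2 lower). A few bright probe sets carry such sums, and the markers of a cell type did not move together. The median difference of the neuronal markers was -1.51 (log2), with Syt1 at -1.51, Stmn2 at -1.87 and Tubb3 at -3.23, but Snap25 at 0.74 and Rbfox3 at 2.06. Some genes higher on the brightest probe set also had lower ones. Rbfox3 had 1 probe set higher and 2 lower, Aqp4 1 and 2, and Mbp 4 and 4. Gfap and C1qb each had 2 higher and 1 lower, and Gja1 had 4 and 1. Snap25, Sox10 and Csf1r had no lower probe set. The brightest probe set of Gfap has an ID ending in _s_at, and those of Gja1, Mbp and C1qb end in _x_at. Both classes are described below. Endothelial markers summed to 509 to 1277 in IP and 1463 to 1776 in WB, with 3 of 4 lower, and red blood cell markers to 298 to 1282 in IP and 5089 to 16262 in WB, also with 3 of 4 lower. Of the 28 markers 5 had an IP mean below the highest mean of the dim trpn controls described below. None of the 28 markers measured was at 0 on any array. In such bulk samples, fewer cells of a type and less RNA per cell cannot be told apart. The part of these cell types in the results for the poly(A)-binding proteins was not tested.

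**Figure D2:**
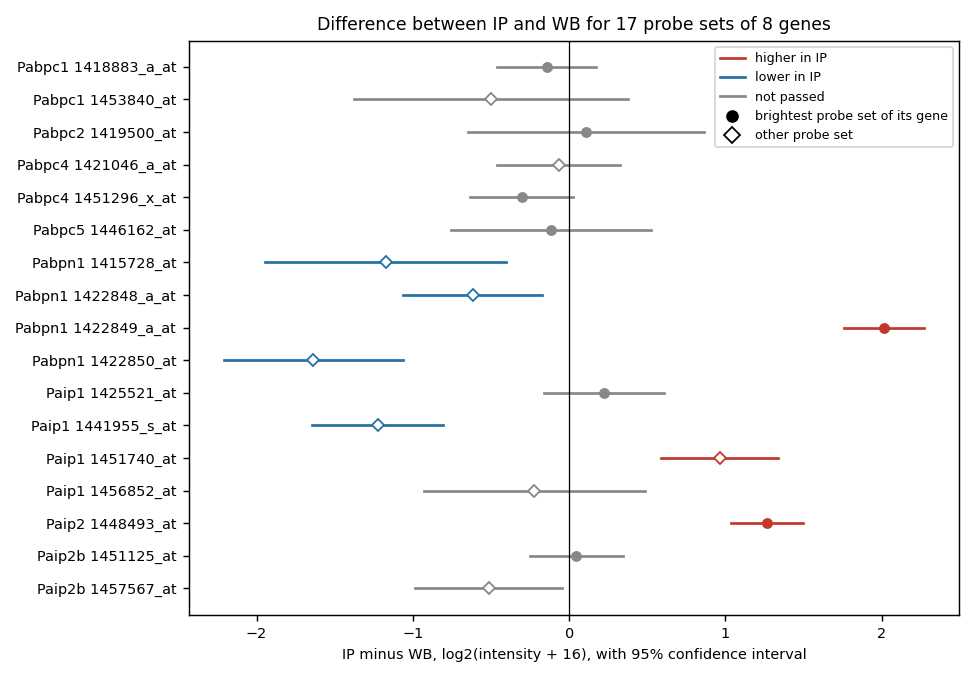
Difference between IP and WB for each probe set, log2(intensity + 16), with its 95% confidence interval from limma. Filled circles mark the brightest probe set of a gene, open diamonds the others, and colours mark those higher in IP (red), lower (blue) or not past an adjusted p of 0.05 (grey). Pabpn1 and Paip1 have probe sets on both sides of 0.

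Pabpc1, the major cytoplasmic poly(A)-binding protein and the mouse counterpart of the transgene's protein, did not differ beyond its spread. Its brighter probe set, 1418883_a_at, had intensities of 634, 879 and 1363 in IP (lowest, median, highest) and 882, 1030 and 1088 in WB. The WB arrays lay close together within the IP range, with 2 IP arrays (replicates 2 and 7) above the highest WB array and 5 below the lowest. The SD was 0.39 in IP and 0.10 in WB (log2), a ratio of 4.06, against a median ratio of 1.98 over all probe sets. The difference was -0.14 (SE 0.15, adjusted p = 0.479, limma), with a 95% interval from -0.46 to 0.17, which leaves a rise above 1.13-fold and a fall of more than 1.38-fold outside it. These bounds hold for the deposited scaling only: the difference was 0.00 with quantile normalization, 0.28 with median centring (adjusted p = 0.132) and -1.07 with the hybridization controls (adjusted p = 0.000433). The scalings moved the median of all probe sets to 0.11, 0.20 and -1.03, and relative to those medians Pabpc1 stood at -0.11, 0.08 and -0.04. Relative to -0.23 with the deposited scaling it stood at 0.08.

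The second Pabpc1 probe set, 1453840_at, was dim, at 13.9, 96.5 and 248 in IP and 35.4, 118 and 213 in WB. The groups overlapped over most of their range, and the difference was -0.50 (SE 0.42, adjusted p = 0.357, limma). The trpn control probe sets, for a bacterial transcript, had group means of up to 6.31 on the log2 scale, and this probe set averaged 6.54 in IP and 7.04 in WB. The difference between the 2 Pabpc1 probe sets on an array changed by 0.36 between the groups (SE 0.46, adjusted p = 0.538, limma over 16752 such pairs).

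The other cytoplasmic binding proteins also gave no call. Pabpc4, an inducible relative of Pabpc1 with the same domain plan, had a probe set of 264, 346 and 474 in IP and 406, 423 and 473 in WB (1451296_x_at). IP was the lower group on 8 of 9 arrays measured against the WB mean, and 7 IP arrays lay below the lowest WB array, but the difference of -0.30 did not pass (SE 0.16, adjusted p = 0.126, limma, 95% interval -0.63 to 0.02). Its ID ends in _x_at, a class whose probes can match other genes. The second Pabpc4 probe set, 1421046_a_at, was at 239, 337 and 493 in IP and 239, 329 and 504 in WB, nearly the same range in both groups, with a difference of -0.07 (SE 0.19, adjusted p = 0.800). Both Pabpc4 values turned positive with quantile normalization (0.05 and 0.32) and median centring (0.12 and 0.36), without passing, and both passed as lower with the hybridization controls (-1.20 and -0.96).

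Pabpc5, an X-linked member known to lack the carboxy-terminal domain of PABPC1, had a single probe set at 35.5, 116 and 235 in IP and 71.6, 148 and 254 in WB. The IP range covered nearly all of the WB range, and the difference was -0.12 (SE 0.31, adjusted p = 0.790, limma, 95% interval -0.76 to 0.53). Pabpc2, an intronless relative known from the mouse testis, was the dimmest of the 17. Its probe set was at 15.0, 56.7 and 168 in IP and 13.6, 36.4 and 89.7 in WB, with log2 means of 5.99 in IP and 5.88 in WB, both below the highest trpn control mean of 6.31. It was also the only one of the 17 with a mean intensity under 100. The difference was 0.11 and did not pass (SE 0.37, adjusted p = 0.835), with a 95% interval from -0.65 to 0.87. With the hybridization controls Pabpc5 passed as lower (-0.95, adjusted p = 0.0171) and Pabpc2 did not pass (-0.50, adjusted p = 0.249).

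Pabpn1, the nuclear poly(A)-binding protein, had calls in both directions. Its brightest probe set, 1422849_a_at, rose, at 16145, 19017 and 28679 in IP and 3937, 4939 and 5738 in WB. The lowest IP array stood far above the highest WB array, a separation that 5.22% of all probe sets showed in this direction. The rise was 4.04-fold (2.02, SE 0.12, adjusted p = 3.34e-12, limma), the 510th largest of 45037. It kept its direction and its call under the other scalings, at 2.44 after median centring, 1.11 after quantile normalization and 1.07 on the hybridization controls.

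The other 3 Pabpn1 probe sets fell. The clearest was 1422850_at, at 147, 488 and 1030 in IP and 1082, 1341 and 1618 in WB. All 9 IP arrays lay below all 9 WB arrays, as for 10.3% of all probe sets, and the fall was 3.11-fold (-1.64, SE 0.28, adjusted p = 3.18e-05, limma). The probe set 1415728_at was at 40.4, 416 and 915 in IP and 633, 822 and 1232 in WB, with 7 IP arrays below the lowest WB array, and fell 2.26-fold (-1.17, SE 0.37, adjusted p = 0.0126). Its lowest array was IP replicate 6, which with 40.4 lay well under the next, and without that array the fall was 0.83 on the log2 scale and still passed. The fourth, 1422848_a_at, was at 636, 2268 and 2878 in IP and 2282, 2636 and 3407 in WB, and fell 1.53-fold (-0.62, SE 0.22, adjusted p = 0.0224). Its groups overlapped, with 5 IP arrays below the lowest WB array, among them replicate 6 as the lowest. With median centring neither of these last 2 passed (-0.75, adjusted p = 0.112, and -0.19, adjusted p = 0.506), whereas 1422850_at did (-1.21, adjusted p = 0.000571). As the mean over its 4 probe sets Pabpn1 was lower by 0.35 on the log2 scale with the deposited scaling (SE 0.13, adjusted p = 0.0327). This mean pools the brightest probe set, which rose, with the 3 that fell, so it gives no single direction for the gene. With median centring the rise of the brightest was larger, at 2.44, and the 3 falls were smaller. The mean over the 4 probe sets was not tested with the other scalings.

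**Figure D3:**
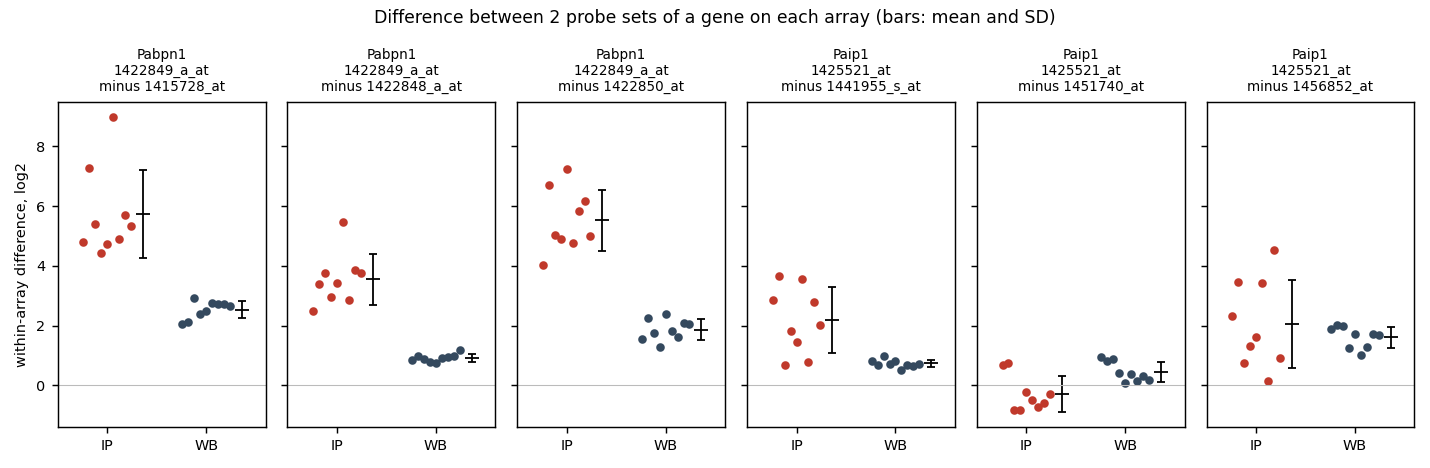
Difference on each array between the brightest probe set of Pabpn1 or Paip1 and each other probe set of the same gene (log2), on 9 IP arrays (red, left) and 9 WB arrays (dark, right), with mean and SD in black. The 3 Pabpn1 differences are larger on every IP array than on any WB array, and the spread is wider in IP.

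A constant scaling factor of an array cancels in the difference between 2 probe sets on that array, apart from the added 16. These differences were therefore tested, on the deposited values, over all genes with more than 1 probe set. Pabpn1 1422849_a_at exceeded 1422850_at by 5.52 ± 1.03 in IP and 1.87 ± 0.35 in WB (log2, SD, n = 9 each). The difference thus changed by 3.65 (SE 0.36, adjusted p = 3.6e-08, limma), or 12.6-fold, and no IP array overlapped a WB array. Against 1415728_at it changed by 3.19 (SE 0.47, adjusted p = 7.02e-06) and against 1422848_a_at by 2.63 (SE 0.30, adjusted p = 2.91e-07), again without overlap. Without IP replicates 2, 5, 6 and 8 the changes were 2.44 against 1415728_at, 2.24 against 1422848_a_at and 3.09 against 1422850_at, and all 3 pairs still passed. Quantile normalization is not a constant factor, and the pairs were not tested with it. With it 1422849_a_at was at 1.11 and 1422850_at at -1.48 (IP minus WB), against 2.02 and -1.64 as deposited. Probe sets of Pabpn1 therefore changed unequally between IP and WB. Unequal change was common on the array: 54% of 16752 pairs passed, 20.8% had groups without overlap, and 22% of 9010 genes with more than 1 probe set had calls in both directions. Of the 9 pairs in the 5 genes described here with more than 1 probe set, 5 passed.

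Paip1, the partner that promotes initiation, also had calls in both directions. The probe set 1451740_at rose, at 1289, 1899 and 4257 in IP and 789, 1034 and 1375 in WB. All IP arrays but replicate 1 lay above the highest WB array, and the rise was 1.95-fold (0.96, SE 0.18, adjusted p = 0.000114, limma). With the hybridization controls it did not pass (0.03, adjusted p = 0.922). The probe set 1441955_s_at fell, at 208, 375 and 615 in IP and 802, 848 and 981 in WB. All IP arrays lay below all WB arrays, as for 10.3% of all probe sets, and the fall was 2.34-fold (-1.23, SE 0.20, adjusted p = 2.5e-05). The suffix _s_at marks probes shared between transcripts. Its SD was 5.44 times as large in IP as in WB, the widest ratio among the 17.

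The brightest Paip1 probe set, 1425521_at, did not pass, at 902, 1738 and 3019 in IP and 1329, 1441 and 1676 in WB. The WB arrays again lay inside the IP range, with 5 IP arrays above them and 2 below, and the difference was 0.22 (SE 0.19, adjusted p = 0.354, limma). It passed as higher with median centring (0.65, adjusted p = 0.00941) and as lower with the hybridization controls (-0.71, adjusted p = 0.00374). The fourth, 1456852_at, ran from 59.4 to 956 in IP (median 518) and from 385 to 668 in WB (median 429), with a difference of -0.22 (SE 0.34, adjusted p = 0.628). Its lowest value came from IP replicate 8, without which the difference was 0.08. Without IP replicates 2, 5, 6 and 8 the differences of 1425521_at and 1456852_at were -0.08 and 0.44, neither past the threshold. The distance of 1425521_at above 1441955_s_at widened by 1.45 (SE 0.36, adjusted p = 0.00201) and was 0.90 without those 4 IP arrays (adjusted p = 0.0187). The within-array difference of 1425521_at minus 1451740_at averaged -0.28 ± 0.61 in IP and 0.46 ± 0.33 in WB (log2, SD, n = 9 each), a change of -0.74 (SE 0.25, adjusted p = 0.017). As the mean over its 4 probe sets Paip1 had a difference of -0.07 (SE 0.12, adjusted p = 0.700).

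Paip2, the inhibitor that displaces PABPC1 from poly(A) and from eIF4G, rose. Its probe set, 1448493_at, was at 9458, 11751 and 14466 in IP and 4118, 5316 and 6196 in WB. Every IP array lay above every WB array, as for 5.22% of all probe sets. The spread was alike in both groups, with an SD of 0.20 in each (log2). The rise was 2.41-fold (1.27, SE 0.11, adjusted p = 1.45e-09, limma), with a 95% interval of 2.05-fold to 2.82-fold. It was the 2183rd largest rise of 45037. With quantile normalization the difference was 0.45 (adjusted p = 0.000138) and with the hybridization controls 0.33, which did not pass (adjusted p = 0.083). Relative to the median of all probe sets under each scaling it was 1.5 for the deposited values and for median centring, 0.34 for quantile normalization and 1.35 for the hybridization controls. No other probe set of Paip2 was on hand to check it.

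Paip2b, the paralog of Paip2 with the same activity, gave no call, and the difference between the paralogs was not tested. Its brighter probe set, 1451125_at, was at 1122, 1823 and 2313 in IP and 1431, 1583 and 2203 in WB, and the difference of 0.05 was within the spread (SE 0.14, adjusted p = 0.822, limma). The 95% interval ran from -0.25 to 0.34, so a rise above 1.27-fold lay outside it with the deposited scaling. With median centring the difference passed (0.47, adjusted p = 0.0189), and with the hybridization controls it passed in the other direction (-0.89, adjusted p = 0.000994). The dimmer probe set, 1457567_at, was at 124, 327 and 506 in IP and 279, 501 and 581 in WB. Against the WB mean 8 of 9 IP arrays were lower, but the difference of -0.52 did not pass (SE 0.23, unadjusted p = 0.0332, adjusted p = 0.0693). The difference between the 2 Paip2b probe sets changed by 0.56 (SE 0.26, adjusted p = 0.0752).

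**Figure D4:**
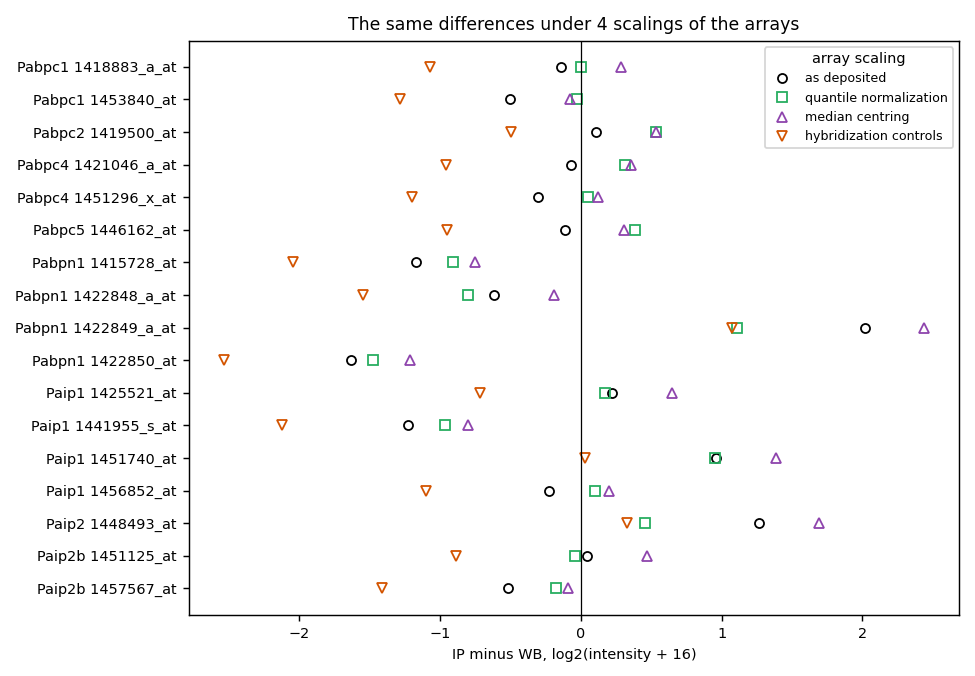
The difference between IP and WB of each probe set, log2(intensity + 16), with the deposited scaling (black circles), quantile normalization (green squares), median centring (purple triangles) and scaling on the hybridization controls (orange triangles pointing down). Pabpn1 1422849_a_at, Paip1 1451740_at and Paip2 stay to the right of 0. The other 3 Pabpn1 probe sets, Paip1 1441955_s_at, Pabpc1 1453840_at and Paip2b 1457567_at stay to the left. Pabpc1 1453840_at and Paip2b 1457567_at did not pass as deposited.

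Among the 17 probe sets the values varied more between IP arrays than between WB arrays in 15, as in 87.7% of all probe sets, and the median ratio of SDs was 1.94. IP replicate 6 was the highest IP array in 6 of the 17 and the lowest in 2, both of Pabpn1, and IP replicate 7 was the highest in 4. Without IP replicates 2, 5, 6 and 8 the counts were again 3 higher and 4 lower.

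Over the 18 arrays, after the group means were subtracted, the genes whose pattern was most like that of Pabpc1 1418883_a_at were Cacna1e, which encodes a calcium channel subunit (Pearson r = 0.94, Spearman rho = 0.92), Sugp2 (r = 0.91, rho = 0.85) and Anapc5 (r = 0.91, rho = 0.89). For Paip2 they were Slc25a3, the mitochondrial phosphate carrier (r = 0.82, rho = 0.81), Tyw5 (r = 0.82, rho = 0.78) and Coprs (r = 0.81, rho = 0.82). These are the highest of 16842 probe sets, so they carry no p. All the arrays share an amplification kit and a scaling. Without the 2 arrays farthest from the median, r was 0.83 to 0.94 for Pabpc1 and 0.72 to 0.85 for Paip2. For Sugp2, r was 0.96 within IP and 0.14 within WB.

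Genes that make, read and remove the poly(A) tail were measured on the brightest probe set of each. Of 86 genes 32 were higher in IP (37.2%) and 23 were lower (26.7%), against 21.7% and 21.7% of all genes, with a median difference of 0.20 against 0.00414. These shares are not of like genes. More than 1 probe set was there to pick from for 69 of the 86 genes, but for 9010 of all 18193 genes. The part of this choice in the shares was not tested. Of the 32 higher genes 27 had more than 1 probe set, and in 17 of these another probe set was lower. When a gene's probe sets were averaged, 15 were higher (17.4%) and 28 were lower (32.6%), while 12.5% and 29% of all genes were. Scaling moved the split of these genes and that of all genes. With quantile normalization 35 were higher (40.7%) and 24 lower (27.9%), beside 32.8% and 16.2% of all genes. With median centring 44 were higher (51.2%) and 14 lower (16.3%), beside 39% and 11.4% of all genes. With the hybridization controls 10 were higher (11.6%) and 49 lower (57%), beside 5.44% and 54.2% of all genes. With those controls the named rises that still passed ranged in size from 0.40 (Fip1l1) to 2.06 (Pan3) on the log2 scale, below their deposited values.

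**Figure D5:**
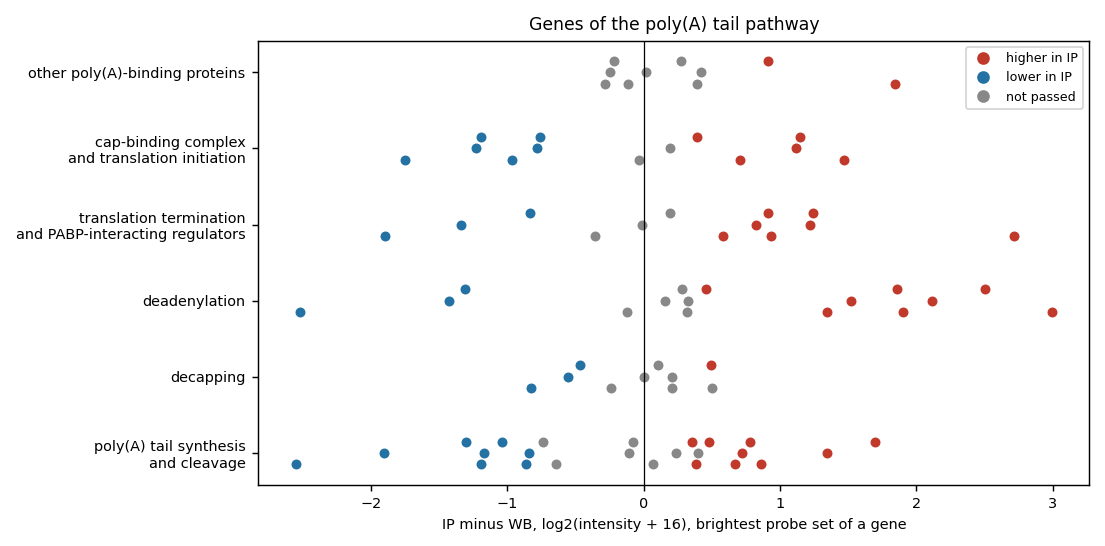
Difference between IP and WB, log2(intensity + 16), of 86 genes of the poly(A) tail pathway in 6 lists, each on its brightest probe set. Red points were higher in IP, blue points lower and grey points did not pass an adjusted p of 0.05.

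Among 10 other proteins that bind poly(A) or the PABP complex, 2 were higher (20%, beside 21.7% of all genes) and 8 did not pass. Zc3h14, a zinc finger protein that binds poly(A) in the nucleus, rose 3.59-fold (adjusted p = 1.94e-11, limma) on 1 probe set and fell on its second. Pabpc6, a relative of the cytoplasmic proteins, passed as higher, with log2 means of 5.83 in IP and 4.92 in WB, both below the highest trpn control mean, and did not pass with the hybridization controls (0.36, adjusted p = 0.257). The remaining relatives, Pabpc1l, Pabpc4l and Pabpn1l, did not pass, with differences of -0.11, 0.39 and 0.02.

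Of 13 genes of cap binding and initiation 5 were higher and 6 were lower (38.5% and 46.2%, beside 21.7% and 21.7% of all genes). Eif4g2, an eIF4G relative that does not bind the cap-binding protein, rose 2.76-fold (adjusted p = 6.62e-10) and Eif4e, the cap-binding protein, 2.21-fold (adjusted p = 1.14e-07), each with another probe set lower. The difference of Eif4g2, on an _s_at probe set, was 1.47 as deposited but 0.36 with quantile normalization and 0.52 with the hybridization controls. Eif4e2, a repressive cap-binding relative, fell 3.38-fold (adjusted p = 1.39e-05), with 3 of its 5 probe sets lower and 1 higher, and Eif3h, an eIF3 subunit, fell 2.35-fold (adjusted p = 6.58e-06). All 3 probe sets of Eif3h were lower. Eif4e did not pass with the hybridization controls (0.20, adjusted p = 0.431).

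Of 13 genes of termination and PABP-interacting regulators 7 were higher and 3 were lower (53.8% and 23.1%, beside 21.7% and 21.7% of all genes). Tob2, which links PABPC1 to a deadenylase, rose 6.57-fold (adjusted p = 6.58e-13) on an _x_at probe set, with another of its 5 lower. Atxn2, ataxin-2, a PABP-binding protein, rose 2.36-fold (adjusted p = 2.18e-09) on an _s_at probe set, with 2 of 6 probe sets higher and 0 lower. Atxn2 did not pass with the hybridization controls (0.30, adjusted p = 0.172). Tnrc6b, a scaffold of microRNA silencing that binds PABPC1, fell 3.72-fold with all 3 probe sets lower (adjusted p = 5.04e-09), and Etf1, the release factor eRF1, fell 2.53-fold (adjusted p = 2.11e-05).

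Of 16 deadenylation genes 8 were higher and 3 were lower (50% and 18.8%, beside 21.7% and 21.7% of all genes). Pan3, the PABP-binding subunit of the PAN2-PAN3 deadenylase, rose 7.96-fold (adjusted p = 4.34e-13) with 2 of 4 probe sets higher and 0 lower. Pan2, its catalytic subunit, had a difference of 0.28 on a single probe set and did not pass (SE 0.29, adjusted p = 0.459). The difference between Pan3 and Pan2 was not tested. Cnot2, a scaffold subunit of the CCR4-NOT deadenylase, rose 5.66-fold (adjusted p = 1.8e-11) with 1 probe set lower. Cnot6l, a catalytic subunit of that complex, fell 5.76-fold with all 4 probe sets lower (adjusted p = 6.89e-11), and Cnot3 fell 2.69-fold (adjusted p = 0.00391). Cnot3 was dim, with log2 means of 6.48 in IP and 7.91 in WB. Its IP mean was close to the highest trpn control mean of 6.31, which leaves the size of its fall open. The brightest probe sets of Pan3 and Cnot2 have IDs ending in _x_at.

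Of 10 decapping genes 1 was higher and 3 were lower (10% and 30%, beside 21.7% and 21.7% of all genes). Dcp2, the decapping enzyme, fell by 0.83 on the log2 scale (adjusted p = 0.00612) and Ddx6, a helicase of the decapping complex, by 0.55 (adjusted p = 0.000481). Neither passed with median centring, and Edc3, an enhancer of decapping, which rose by 0.49 (adjusted p = 0.0327), had a difference of -0.43 with the hybridization controls.

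Of 24 genes of tail synthesis and cleavage 9 were higher and 8 were lower (37.5% and 33.3%, beside 21.7% and 21.7% of all genes). Cpsf3, the endonuclease that cuts the message before the tail is added, rose 3.24-fold (adjusted p = 7.46e-08) with 2 of 3 probe sets higher and 0 lower. The ID of its brightest probe set ends in _x_at. Fip1l1, which recruits the poly(A) polymerase, rose 2.54-fold (adjusted p = 3.46e-08) with 1 other probe set lower. Cpsf2, the partner subunit of Cpsf3, fell 5.86-fold with 2 of 3 probe sets lower (adjusted p = 3.04e-05), and Clp1, a kinase of the cleavage machinery, fell (adjusted p = 0.000111). Clp1 had log2 means of 6.05 in IP and 7.96 in WB, and its IP mean was under the highest trpn control mean, which leaves the size of the fall open.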

How the data were processed

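RNA of 9 IP and 9 WB samples had been amplified from 5 ng with the NuGEN WT-Ovation Pico system, per the labels' protocols. The deposited values are linear intensities. The submitters' processing notes name MAS5 as the tool, without a version. Detection calls and probe sequences were not used here. The 64 control probe sets were left out of the test and 45037 were fitted on log2(intensity + 16) with limma 3.58.1 in R 4.3.3, with an intensity trend and Benjamini-Hochberg adjustment. Of these, 34945 had 1 gene symbol (18193 genes), 932 several and 9160 none listed. No probe set with several symbols included any of the 8 genes. A gene's brightest probe set had the highest mean over 18 arrays, and was set against each other one within arrays in the same way. All member probe sets are named, and from each pathway list at most 2 rises and 2 falls. Pan2, Pabpc1l, Pabpc4l and Pabpn1l, which did not pass, are named besides. The members and lists were chosen with earlier results of these data known. Of 91 pathway genes 86 were measured, and the other 5 were not analysed here. Likeness used probe sets with a log2 mean of at least 8.

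The fit was tested on simulated data with the SD of each group. Of 50 changes of each size it recovered 2 at 0.5, 14 at 1, 42 at 2 and 50 at 4 (log2), and it called 10 unchanged probe sets. Changes of 1 or less were thus mostly missed there. Far fewer probe sets changed in the simulation than were called in the data, so recovery in the data can differ. The alternatives were pseudocounts, 3 scalings, a brightness filter, no trend, weights by group, a block for the replicate number and leaving out arrays. Leaving out 4 IP arrays, those with hybridization controls over 1.5 times the highest WB array, was chosen after seeing the data.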

Additional observations from a re-analysis of the deposited data

Results flagged for a closer look

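Of 34 sets of 9 values (17 probe sets in IP and in WB), 1 had an array far from the others. In Paip2b 1457567_at, IP replicate 8 was the lowest with an intensity of 124, and the next IP array had 258. Its gap was 0.512 of the group's range on the log2 scale, above Dixon's 95% critical value for 9 values. Chance flags about 1 in 20 such sets.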

How the results depend on the processing

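Counts of members and pathway genes stayed within 1.5 times with pseudocounts of 1 and 64, quantile normalization, the filter at a mean intensity of 100, no trend, weights by group, the replicate block and without the 4 IP arrays. With median centring 5 member probe sets were higher and 2 lower, and 14 pathway genes were lower. With the hybridization controls these were 1 and 13, and 10 pathway genes were higher and 49 lower. With the mean over probe sets 15 pathway genes were higher. Leaving out 1 array gave 3 member probe sets higher, 4 to 5 lower, 27 to 32 pathway genes higher, 22 to 24 lower and 5 to 6 unequal pairs, against 3, 4, 32, 23 and 5 with all arrays. The Gapdh ratio then differed by 2.46 to 2.73 and that of beta-actin by -0.24 to -0.07. The causes were not tested.

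Nothing says whether a replicate number shared by IP and WB marks the same animal. Deviations of arrays with the same number correlated at -0.05 to 0.08, and 2 of 9 correlated best with their own number. Variation between arrays could hide a pairing, so these correlations cannot decide it. With the replicate block 3 member probe sets were higher and 4 lower, 29 pathway genes were higher and 23 lower, and 5 pairs changed unequally.

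Several differences that had not passed changed sign. With quantile normalization Pabpc1 1418883_a_at was 0.00071, Pabpc4 0.32 (1421046_a_at) and 0.052 (1451296_x_at), Pabpc5 0.39, Paip1 1456852_at 0.10 and Paip2b 1451125_at -0.043. With median centring, in the same order without Paip2b, they were 0.28, 0.36, 0.12, 0.31 and 0.20. With the hybridization controls Pabpc2 was -0.50, Paip1 1425521_at -0.71 and Paip2b 1451125_at -0.89, the last pair past the threshold. Without the 4 IP arrays Pabpc4 1421046_a_at was 0.027, Paip1 1425521_at -0.081 and 1456852_at 0.44, Paip2b 1451125_at -0.0054, and the change between those Paip1 probe sets -0.52. Leaving out 1 array gave -0.082 to 0.24 for Pabpc2, -0.22 to 0.063 for Pabpc5, -0.38 to 0.083 for Paip1 1456852_at and -0.0057 to 0.12 for Paip2b 1451125_at. Paip2b 1457567_at passed without IP replicate 3 or WB replicate 8. Little can be read from levels near the trpn controls.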
